A study of Mus musculus with 4 samples.

Results

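The 163 genes described here are the protein-coding genes of the RefSeq annotation of the mouse genome (GRCm38.p6, the mm10 coordinates) that lie on chromosome 7, 13 or 17 and carry the symbol Zfp followed only by a number. They were chosen by name and position, out of 21887 protein-coding genes; 90 lie on chromosome 7, 32 on chromosome 13 and 41 on chromosome 17. Methylation was measured in livers of 6-week-old C57BL6/N mice, 2 libraries from Pnpla7-/- mice (KO) and 2 from Pnpla7+/+ mice (WT). Pnpla7 encodes a patatin-like phospholipase that hydrolyses lysophosphatidylcholine, and the comparison asks how its loss bears on DNA methylation in liver. The libraries were reduced representation bisulfite libraries: genomic DNA was cut with MspI (CCGG) and TaqI (TCGA), ligated, converted with bisulfite and sequenced, so that only CpGs near these sites were read. The labels give neither the sex of the mice nor the number of animals behind the libraries. A p-value here therefore weighs a difference against counting error and a spread between libraries, which is largely pooled over features and may be technical.

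Most Zfp genes encode C2H2 zinc finger proteins, in which a tandem array of fingers reads a DNA sequence. Many also carry a KRAB domain, which recruits TRIM28 and through it histone methyltransferase and DNA methylation machinery to repeats and imprinted loci. These genes arose by repeated duplication and stand in clusters, and their last exon, which holds the finger array, is known to be covered by repressive chromatin in many cell types while their start is not.

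Promoter windows are shown first because they carry the main contrast among the starts. RefSeq (GRCm38.p6) gave a 300-base window, from 250 bases before a start to 50 after it, for 169 starts of 146 of the genes. In 84 windows at least 3 CpGs had 10 or more reads in every library; 82 of them were methylated below 20% (97.6%, against 94.1% of such windows of all genes), none lay between 20% and 80%, and 2 lay above 80%. Some genes have more than 1 start, and windows of nearby starts share CpGs, so these counts of windows hold some CpGs more than once. The 2 methylated ones belong to Zfp977 (chr7:42592496-42592795, minus strand) and Zfp936 (chr7:43177340-43177639, plus strand), and are shown with Zfp975 (chr7:42692669-42692968, minus strand), a relative of both, and with a pair of unmethylated starts of the same chromosome, Zfp658 (chr7:43562120-43562419, plus strand) and Zfp715 (chr7:43313251-43313550, minus strand). Each is written 5′ to 3′ along its gene; capitals mark the CpGs that were measured.
Zfp977: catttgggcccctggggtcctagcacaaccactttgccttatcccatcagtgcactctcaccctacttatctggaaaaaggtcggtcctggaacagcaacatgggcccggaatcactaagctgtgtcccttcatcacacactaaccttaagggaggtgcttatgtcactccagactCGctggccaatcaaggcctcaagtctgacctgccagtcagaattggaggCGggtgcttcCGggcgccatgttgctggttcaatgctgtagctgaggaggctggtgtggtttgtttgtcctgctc
Zfp936: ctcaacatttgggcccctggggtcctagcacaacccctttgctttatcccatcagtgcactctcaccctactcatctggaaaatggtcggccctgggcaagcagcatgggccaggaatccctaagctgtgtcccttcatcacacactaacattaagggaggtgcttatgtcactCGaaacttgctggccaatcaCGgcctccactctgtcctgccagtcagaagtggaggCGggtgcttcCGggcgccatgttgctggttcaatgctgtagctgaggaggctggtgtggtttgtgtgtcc
Zfp975: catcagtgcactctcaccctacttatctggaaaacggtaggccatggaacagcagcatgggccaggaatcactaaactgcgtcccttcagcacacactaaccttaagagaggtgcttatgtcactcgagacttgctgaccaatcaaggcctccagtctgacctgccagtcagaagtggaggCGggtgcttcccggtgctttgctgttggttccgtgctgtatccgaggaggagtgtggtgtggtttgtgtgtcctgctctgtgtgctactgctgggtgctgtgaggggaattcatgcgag
Zfp658: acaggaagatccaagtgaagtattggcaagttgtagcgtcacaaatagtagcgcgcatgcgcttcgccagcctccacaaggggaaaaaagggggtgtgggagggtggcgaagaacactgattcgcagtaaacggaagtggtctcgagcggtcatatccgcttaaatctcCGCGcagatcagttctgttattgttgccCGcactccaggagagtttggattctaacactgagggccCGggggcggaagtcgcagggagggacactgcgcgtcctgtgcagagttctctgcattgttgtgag
Zfp715: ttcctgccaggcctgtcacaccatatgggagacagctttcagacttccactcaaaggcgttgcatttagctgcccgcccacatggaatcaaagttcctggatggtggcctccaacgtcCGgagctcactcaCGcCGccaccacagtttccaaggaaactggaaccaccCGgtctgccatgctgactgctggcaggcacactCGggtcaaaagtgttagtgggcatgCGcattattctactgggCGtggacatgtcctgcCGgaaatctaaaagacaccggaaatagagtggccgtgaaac

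The Zfp977 window was methylated at 85.5% and 88.5% in KO livers, against 93.9% and 82.1% in WT livers, over 3 CpGs and 66 to 78 reads per library. The Zfp936 window was methylated at 90.5% and 95.3% in KO livers, against 90.6% and 86.3% in WT livers, over 4 CpGs and 85 to 126 reads. Both were high in all 4 libraries and the genotypes overlapped. The windows of Zfp977 and Zfp936 are identical at 91.3% of their bases, and that of Zfp975 matches Zfp977 at 76.3% and Zfp936 at 74.0%. The 1 CpG measured in the Zfp975 window was methylated at 9.09% and 7.69% in KO livers and in none of the reads of WT livers, on 11 to 16 reads, where a count of 0 at the minimum of 10 reads allows a level of up to 30.0%. The Zfp658 window held no methylated read in any library, over 4 CpGs and 54 to 131 reads. The Zfp715 window was methylated at 1.24% and 0.459% in KO livers, against 1.30% and 0.385% in WT livers, over 8 CpGs. Zfp977 and Zfp936 have 6 CpGs in the window, against a median of 12 over the 169 windows; the other 9 windows with 8 or fewer and at least 3 of them measured lay at 4.47% or below. The Zfp640 window, with 2 CpGs measured, was at 50% and 53.2% in KO livers, against 53.3% and 52.0% in WT livers; 1 of its CpGs lay at 78.3% or above and the other at 31.0% or below in every library.

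Near-identical windows limit this comparison. In 8 pairs of windows of different genes, with 13 genes among them, at least 80% of the bases were identical, up to 97.3% for Zfp758 and Zfp943, and a read from one copy may have been placed on the other. The recognition site of MspI stood in 72.8% of the windows, against 62.2% of those of all genes, and that of TaqI in 27.8%, against 23.9%. The motif TGCCGC, read by ZFP57 when methylated, was searched on both strands and stood in 20 windows (11.8%, against 14.1% of all windows). The motif holds neither enzyme site within it. A match is a description of the letters and no measure of binding.

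Of the 163 genes, 151 had at least 1 part with a value, and 12 had none, 8 of them on chromosome 13. A part needed 3 CpGs with 10 or more reads in every library, with the reads of both strands of a CpG summed. The 4 parts were defined: the window within 1 kb of whichever gene end has more CpGs listed, the same window at the opposite end (called the other end), the body between these windows, and the 3′ part, which is the last 5 kb of the gene without the 1 kb at the start and so shares CpGs with the body and the end window. Strand came from the RefSeq promoter table for 146 genes, and the CpG-richer end was the start in 119 of them (81.5%, against 77.5% of all genes with a strand). In or within 1 kb of the genes 11167 CpGs were listed and 6196 analysed. The libraries held 59953688 and 60535892 reads over cytosines in KO livers and 50413170 and 59437109 in WT livers. The median depth of CpGs in the genes was 27 and 26 reads in KO livers and 22 and 27 in WT livers, against 25 and 25 in KO livers and 21 and 25 in WT livers over all 1600691 CpGs analysed. Neighbouring genes share reads in 6 pairs of end windows, with 12 genes among them, such as Zfp668 and Zfp646, which share 95 CpGs.

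In most of these genes methylation was low at the CpG-richer end and high in the body and the 3′ part, in every library. The CpG-richer end had a median level of 0.961% over 120 genes, the body 88.0% over 122 and the 3′ part 92.3% over 72. The same medians over all protein-coding genes were 1.75%, 77.1% and 85.9%. Above 80% lay 61.5% of the bodies, against 43.7% of all bodies, and 83.3% of the 3′ parts, against 64.0% of all 3′ parts. The 3′ parts of the 63 measured Zfp genes on other chromosomes had a median of 92.4%, and those of other genes on chromosomes 7, 13 and 17 one of 84.7%. These are descriptions with no test, since the genes were chosen with results of these data known.

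**Figure D1:**
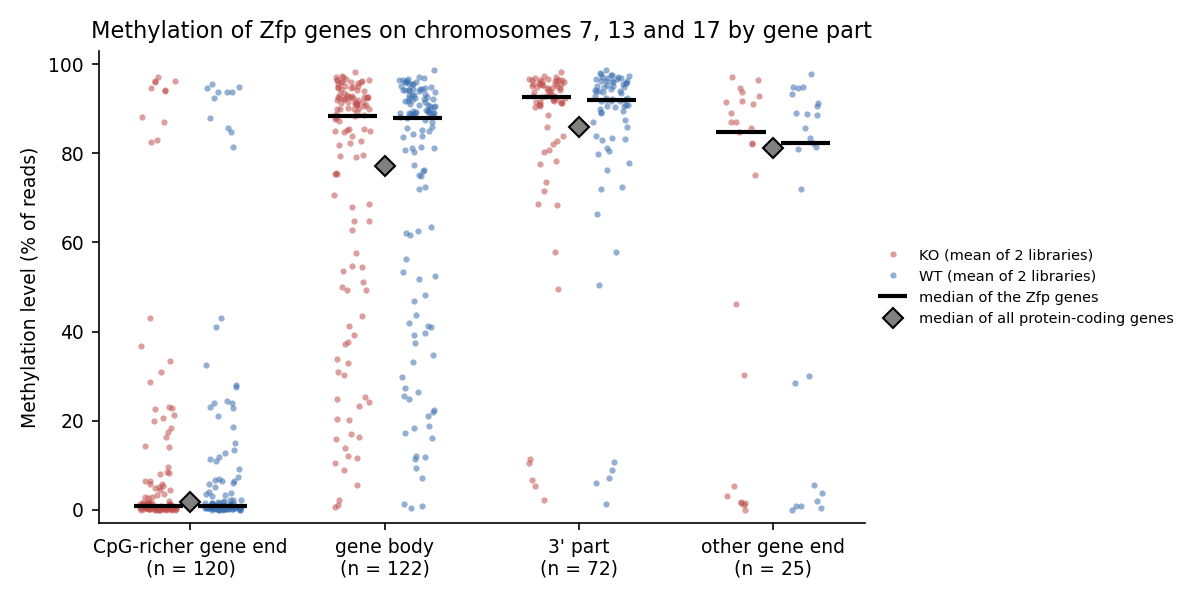
Methylation level of each Zfp gene (vertical axis, % of reads) by gene part; red points are means of the 2 KO libraries and blue points means of the 2 WT libraries, black bars the medians of the Zfp genes and grey diamonds the medians of all protein-coding genes. The points of the CpG-richer end crowd near 0 and those of the body and the 3′ part near 90, in both genotypes.

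Most single genes showed the same step. In the 59 genes with both parts measured, the 3′ part exceeded the CpG-richer end by a median of 86.8 and 86.6 points in KO livers and 88.2 and 85.2 points in WT livers; the difference was positive in 52 and 49 of the 59 genes in KO livers and 51 and 50 in WT livers. It was over 50 points in 44 and 45 genes in KO livers and 44 and 45 in WT livers. In 93 genes the body exceeded the end by a median of 84.1 and 84.4 points in KO livers and 83.5 and 82.3 points in WT livers, and by over 50 points in 68 and 69 genes in KO livers and 68 in both WT livers. The 3′ part and the body differed by a median of 0.26 and 0.58 points in KO livers and 0.24 and 1.27 points in WT livers, over 70 genes. Measured from the RefSeq start, the mean CpG level was 0.687% in KO livers and 0.805% in WT livers in the first 250 bases (936 CpGs). Between 4750 and 5000 bases it was 93.2% in KO livers and 93.7% in WT livers (35 CpGs), while over all other protein-coding genes it was 59.2% in KO livers and 58.9% in WT livers there. The climb was uneven: between 3000 and 3250 bases the level was 20.6% in both KO and WT livers (26 CpGs). Towards the RefSeq 3′ end it was also lower than further inside the gene. In the last 500 bases it was 42.0% in KO livers and 41.2% in WT livers (101 CpGs), against 55.8% in both over all other genes. In the 500 bases before these it was 30.2% in KO livers and 30.3% in WT livers (198 CpGs), against 58.5% and 58.6% over all other genes. Between 3000 and 2500 bases before the 3′ end it was 93.6% in KO livers and 92.9% in WT livers (110 CpGs). All these bins pool CpGs over genes, so genes with many CpGs in a bin weigh most. By gene, 60 of the 72 measured 3′ parts lay above 80% and 5 below 20%.

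**Figure D2:**
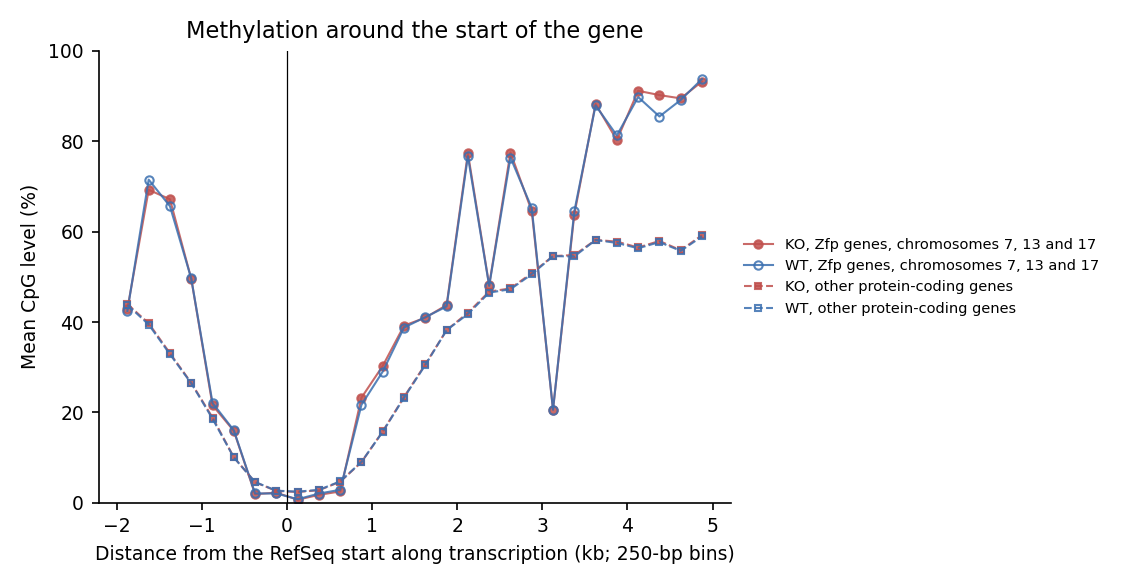
Mean CpG level (vertical axis, %) in bins of 250 bases by distance from the RefSeq start along transcription (horizontal axis, kb), for the Zfp genes (solid lines) and all other protein-coding genes (dashed lines); red is KO and filled, blue is WT and open. The lines of KO and WT lie within 5 points of each other in every bin, and the Zfp genes reach 93.2% in KO livers and 93.7% in WT livers in the last bin; bins of the Zfp genes hold as few as 19 CpGs, and the level moves between neighbouring bins.

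The exceptions in the 3′ part were 5 genes below 20%. Zfp36 encodes tristetraprolin, a CCCH protein that binds and destabilises mRNAs and is no C2H2 factor; its 3′ part was methylated at 1.98% and 2.24% in KO livers, against 1.76% and 0.864% in WT livers. Zfp771 was at 6.50% and 6.92% in KO livers, against 7.88% and 6.32% in WT livers, over 130 CpGs. The others were Zfp53, Zfp580 and Zfp536, between 4.78% and 13.2% in the 4 libraries. In the body 13 of 122 genes lay below 20%, among them Zfp57, Zfp36, Zfp771 and Zfp428. These 13 bodies had low values in both genotypes, and none passed a test between them.

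At the CpG-richer end, 98 of 120 genes lay below 20%, 11 between 20% and 80% and 11 above 80%. The 11 between were mixtures of CpGs more than uniform states: of their 167 CpGs, 84 were below 20%, 64 between and 19 above 80%, and 7 genes held CpGs of both extremes. The exceptions were Zfp551, with all of its 3 CpGs between 20% and 80%, and Zfp541, a gene needed for meiosis in male germ cells, with 26 of 27 CpGs there. The end window of Zfp541 was methylated at 46.0% and 40.3% in KO livers, against 42.5% and 39.4% in WT livers, and the genotypes overlapped. It is centred 10070 bases from the RefSeq start of Zfp541, whose promoter window was not measured, so it is no reading of that promoter. Where the RefSeq promoter of the 11 could be read it was low: 0% in Zfp658, 1.08% in Zfp94, 1.20% in Zfp180, 3.42% in Zfp536, 4.49% in Zfp112 and 0.216% in Zfp27, pooled over the 4 libraries. In these 6 genes the methylated CpGs of the window stood outside the 300 bases. In Zfp536 this had to be so, since its end window is centred 4287 bases from the RefSeq start and does not reach the promoter.

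Of the 11 windows above 80%, 6 lay at the 3′ end of the gene, as in Zfp566, at 94.3% in both KO livers and 93.7% and 95.5% in WT livers. Another 4, those of Zfp93, Zfp383, Zfp977 and Zfp708, lay at the start of the gene, and 1 gene had no strand. The highest of the 11 was Zfp820, with 98.6% and 95.6% in KO livers, against 93.8% and 97.3% in WT livers over 3 CpGs. Zfp109 had 96.3% and 96.2% in KO livers, against 92.0% and 95.7% in WT livers. Zfp428 lay between 92.7% and 98.2% in the 4 libraries, and Zfp708 had 94.8% and 97.7% in KO livers, against 91.4% and 96.2% in WT livers. All of these were high in every library. The RefSeq promoter of Zfp428 was at 0.226%, that of Zfp109 at 0.261%, that of Zfp688 at 1.17% and that of Zfp93 at 0.665%, pooled over the 4 libraries. The Zfp708 window lies at the start of the gene, where 1 of its 2 RefSeq starts stands. The 1 CpG read in a RefSeq promoter of Zfp708 belongs to the other start, outside this window, and had no methylated read.

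Between genotypes no Zfp gene was called in any part. A call needed an adjusted p under 0.05 in a quasi-binomial model of the reads with a moderated dispersion, adjusted by Benjamini-Hochberg over all features of that kind in the genome, and a difference of at least 10 points. At the CpG-richer end 0 of 117 genes tested were called, where 0.0333% of all genes were. In the body it was 0 of 122 (0.0198% of all genes), in the 3′ part 0 of 72 (0.139%), at the other end 0 of 24 (0.101%) and in the RefSeq promoter windows 0 of 74 (0% of all windows). At an unadjusted p under 0.05 stood 7 genes at the CpG-richer end (5.98%, against 6.57% of all genes), 3 in the body (2.46%, against 5.56%), 1 in the 3′ part (1.39%, against 7.12%), 2 at the other end (8.33%, against 7.07%) and 2 promoter windows (2.70%, against 6.58% of all windows). Limma on the log2 of methylated over unmethylated reads called 0 genes of the whole genome in each of the 4 parts. Its 0 for the Zfp genes was therefore fixed in advance and adds nothing. The half-width of the 95% interval of a difference had a median of 1.24 points at the CpG-richer end and 4.98 in the body. It was 4.88 in the 3′ part and 4.97 at the other end. These intervals are not adjusted for the number of features and are no limit of detection. A call needed at least 10 points and an adjusted p under 0.05, so differences well above these half-widths could stay uncalled.

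As a group the genes had nearly the same level in both genotypes. The mean level of the CpG-richer ends was 12.7% and 12.9% in KO livers, against 12.8% and 12.8% in WT livers; KO was higher in 54 genes, lower in 62 and equal in 4. The mean over the bodies was 71.3% and 72.0% in KO livers, against 71.1% and 71.0% in WT livers, with KO higher in 68 genes and lower in 54; the median difference was 0.28 points, against 0.0983 over all bodies. The mean over the 3′ parts was 84.1% and 84.3% in KO livers, against 84.0% and 84.1% in WT livers, with KO higher in 37 genes and lower in 35. The mean over the other ends was 60.5% in both KO livers, against 59.5% and 59.0% in WT livers (25 genes). These means have no test. Floors and binomial intervals here cover counting error only, since reads amplified by PCR are not independent molecules; the intervals of differences come from the model and include its dispersion between libraries. In the body, in the 3′ part and at the other end both KO means lay above both WT means, by less than 2 points. Over all genes the same was seen in the 3′ part and at the other end, but not in the body. The mean difference in the 3′ part was 0.184 points, against 0.325 over all genes. At the other end it was 1.25 points, against 0.271, and in the body 0.583, against 0.218. Differences of 10 points or more were seen in 2 genes, Zfp947 in the body and Zfp768 at the other end, each on 3 CpGs.

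**Figure D3:**
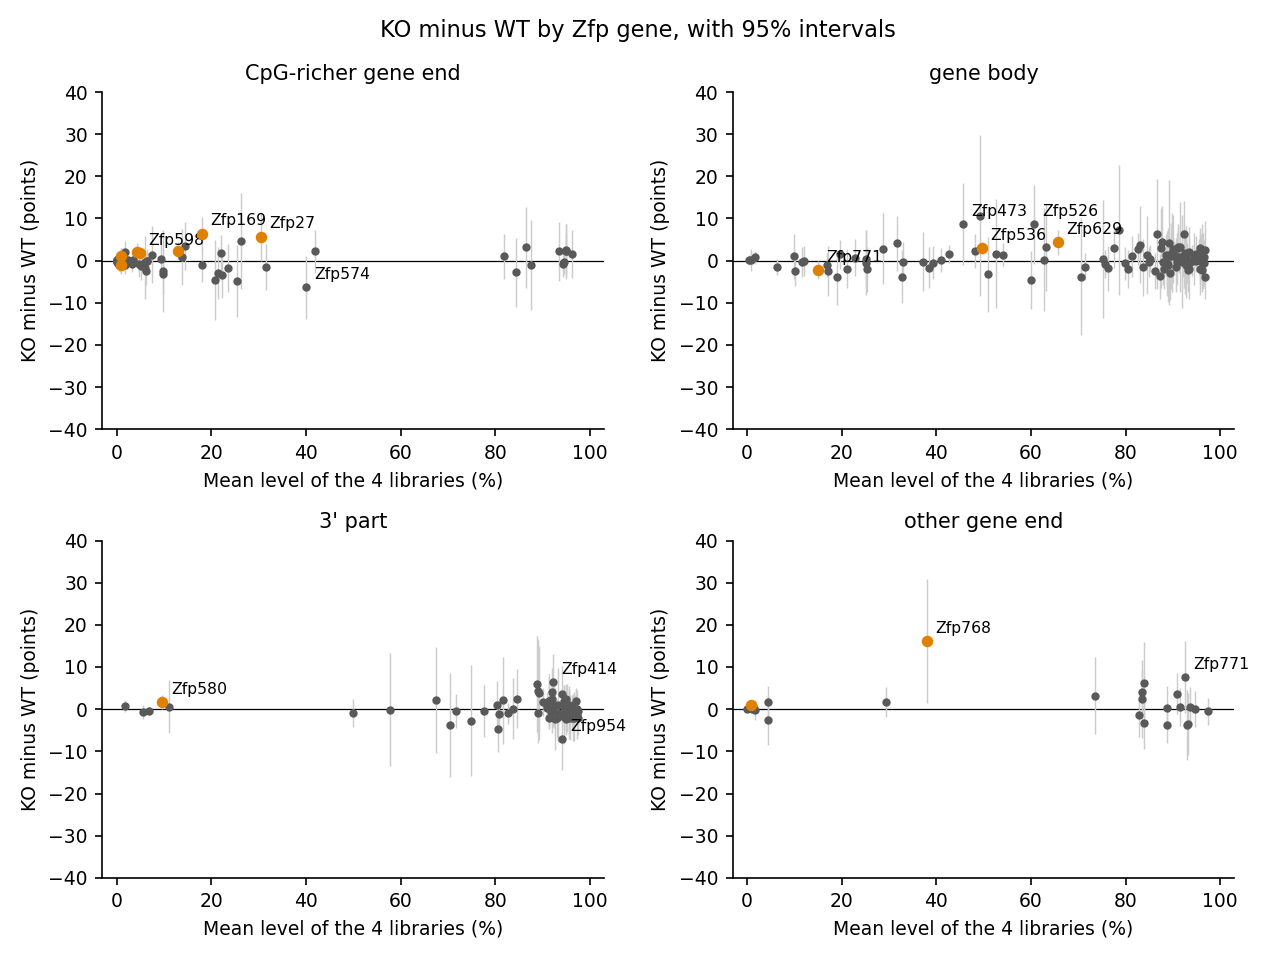
KO minus WT (vertical axis, percentage points) against the mean level of the 4 libraries (horizontal axis, %) for each Zfp gene in 4 gene parts; bars are 95% intervals and orange points have an unadjusted p under 0.05. The points lie around 0 at every level, between -6.32 and 6.38 at the CpG-richer end and between -4.48 and 10.7 in the body, and none passed the adjusted threshold.

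At the CpG-richer end Zfp598 and Zfp169 stood closest to the threshold. Zfp598 encodes an E3 ubiquitin ligase that marks ribosomes stalled in collision. Its window of 79 CpGs was methylated at 6.07% and 5.35% in KO livers, against 4.15% and 3.87% in WT livers, a difference of 1.70 points (SE 0.504, adjusted p 0.435). The Zfp169 window of 29 CpGs was at 21.5% and 21.1% in KO livers, against 13.9% and 15.9% in WT livers, a difference of 6.38 points (SE 1.85, adjusted p 0.435). In both genes the KO libraries lay above the WT libraries without overlap, but such a separation was a condition for choosing genes by their p. When every CpG weighed the same, the mean level of the Zfp169 window was 20.2% and 20.1% in KO livers, against 21.0% and 19.5% in WT livers. In that window 6 CpGs were nearly fully methylated, at 96.9% and 96.7% in KO livers and 98.7% and 92.7% in WT livers, and they held 22.1% and 21.7% of the reads of KO livers but 13.8% and 16.7% of those of WT livers. In the Zfp598 window the mean with CpGs weighing the same was 5.40% and 4.98% in KO livers, against 5.43% and 5.07% in WT livers. There 4 such CpGs held 5.55% of the reads of both KO livers, against 3.76% and 3.83% of those of WT livers. In both windows the difference of summed reads moved with the share of reads on methylated CpGs, and the genotypes overlapped once CpGs weighed the same.

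The other genes with separated libraries at this end differed by less or on fewer reads. Zfp619 was at 5.56% and 5.10% in KO livers, against 3.63% and 2.74% in WT livers (adjusted p 0.733). Zfp580 was at 14.3% and 13.8% in KO livers, against 12.9% and 10.7% in WT livers (adjusted p 0.739). Zfp27 was at 33.9% and 32.8% in KO livers, against 31.9% and 23.4% in WT livers (adjusted p 0.760). On the other side, Zfp574 was at 38.5% and 35.1% in KO livers, against 39.8% and 46.3% in WT livers, a difference of -6.32 points (SE 3.53, adjusted p 0.817), which turned to 0.143 points with windows of 2 kb. Zfp871, Zfp28 and Zfp85 were also lower in both KO libraries than in both WT libraries, all below 2%.

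In the body Zfp536 had the smallest p of the Zfp genes. ZFP536 is a zinc finger protein known to hold back neural differentiation, and 26 of the 57 tiles of 1 kb tested in the gene lay between 20% and 80%. Over 455 CpGs and 9996 to 11015 reads per library it was methylated at 50.4% and 51.6% in KO livers, against 48.3% and 47.9% in WT livers, a difference of 2.90 points (SE 0.629, adjusted p 0.557). The body of Zfp629 was at 68.7% and 67.0% in KO livers, against 63.8% and 63.1% in WT livers, a difference of 4.40 points (SE 1.30, adjusted p 0.723). The KO libraries lay above the WT libraries in both genes, again a condition for choosing them by p, and by less than the 10 points of a call. Neither difference passed the threshold. Zfp473, whose human counterpart works in the 3′ end processing of histone mRNAs, was at 47.0% and 52.8% in KO livers, against 41.1% and 41.3% in WT livers; with windows of 500 bases its difference turned to -0.0305 points. Zfp526 was at 64.2% and 65.5% in KO livers, against 56.8% and 55.7% in WT livers. Lower in KO livers were the bodies of Zfp771, at 13.3% and 14.3% against 16.6% and 15.7% in WT livers, and Zfp428, at 5.98% and 5.20% against 7.51% and 6.72% in WT livers. Their adjusted p ranged from 0.873 for Zfp771 to 0.913 for Zfp428.

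At the other end Zfp768 differed most. Its 3 CpGs were methylated at 45.8% and 46.4% in KO livers, against 28.9% and 31.0% in WT livers, a difference of 16.1 points (95% interval 1.43 to 30.8, adjusted p 0.693) on 38 to 59 reads per library. The libraries did not overlap, but this was a condition for choosing the gene. The reads were few, and with windows of 2 kb the difference turned to -3.64 points over 11 CpGs. The other end of Zfp771 was at 94.4% and 98.4% in KO livers, against 91.3% and 86.3% in WT livers (adjusted p 0.726). The window that Zfp784 and Zfp580 share was at 1.57% and 1.42% in KO livers, against 0.225% and 0.564% in WT livers. In the 3′ part Zfp954 was at 90.4% and 90.6% in KO livers, against 97.3% and 97.9% in WT livers over 3 CpGs (adjusted p 0.749), and Zfp414 was at 94.3% and 96.7% in KO livers, against 93.1% and 85.2% in WT livers (adjusted p 0.732).

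Among the genes with a known function in methylation or imprinting, the genotypes overlapped or lay within a few points of each other. Zfp57, on chromosome 17, encodes the factor that keeps imprints methylated in the early embryo; its body was methylated at 11.2% and 11.9% in KO livers, against 12.7% and 10.9% in WT livers, and its 3′ part at 81.6% and 83.8% in KO livers, against 81.0% and 80.2% in WT livers. Zfp568, on chromosome 7, encodes a KRAB protein that silences a placental Igf2 transcript; its CpG-richer end was at 0.658% and 0.205% in KO livers, against 0.407% and 0.472% in WT livers, and its body at 93.5% in both KO livers, against 91.1% and 92.3% in WT livers. ZFP708, from chromosome 13, binds a class of retrotransposon and protects its methylation in the embryo. The body of its gene was at 34.4% and 39.9% in KO livers, against 35.6% and 39.2% in WT livers, and the 3′ part at 97.3% and 94.4% in KO livers, against 90.0% and 94.6% in WT livers. None of these differences passed the test, with adjusted p between 0.920 for the Zfp708 end and 0.999 for the Zfp568 end.

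Most of the factors with other roles had a low CpG-richer end and a methylated body; Zfp36, Zfp366 and Zfp536 did not. Zfp143, an activator that binds many promoters, was at 0.221% and 0.351% in KO livers, against 0.476% and 0.326% in WT livers at the CpG-richer end, and at 93.4% and 92.0% in KO livers, against 87.6% and 91.3% in WT livers in the body. Zfp346, which binds double-stranded RNA, was at 0.459% and 1.19% in KO livers, against 1.07% and 1.15% in WT livers at that end, and at 92.4% and 92.8% in KO livers, against 91.0% and 88.0% in WT livers in the body. Zfp318, a regulator of IgD expression in B cells, had a body at 86.7% and 91.6% in KO livers, against 88.5% and 87.1% in WT livers, and a CpG-richer end at 0.443% and 0.844% in KO livers, against 0.577% and 0.495% in WT livers. Zfp36 was low at both ends and in the body, with the CpG-richer end at 3.38% and 3.61% in KO livers, against 3.26% and 3.19% in WT livers. Zfp366 encodes DC-SCRIPT, a factor of dendritic cells, and had no low part among those measured: its CpG-richer end was at 82.9% and 82.0% in KO livers, against 82.5% and 80.3% in WT livers, and its body at 75.1% and 75.6% in KO livers, against 75.7% and 76.6% in WT livers. The CpG-richer end of Zfp536 was at 21.8% and 23.4% in KO livers, against 27.2% and 21.4% in WT livers. The CpG-richer ends of Zfp260, Zfp507 and Zfp296 were all at 2.64% or below in every library. The body of Zfp260 was at 94.97% and 95.03% in KO livers, against 96.1% and 98.1% in WT livers, and that of Zfp507 at 83.8% and 79.9% in KO livers, against 81.0% and 80.5% in WT livers. The other end of Zfp296 was at 90.0% and 95.5% in KO livers, against 89.1% in both WT livers.

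In 12 clusters of at least 4 of the genes, with no gap above 200 kb, stood 110 of the 163. The CpG-richer ends had a median of 1.06% in the clusters (78 genes) and 0.924% outside them (42 genes), and the 3′ parts 93.2% in them (50 genes) and 91.4% outside (22 genes). From Zfp180 to Zfp575 on chromosome 7 (chr7:24081877-24587840), 7 of 8 measured end windows were at 20% or more. Those of Zfp109 and Zfp428 lie at the 3′ end of the gene, and the readable RefSeq promoters of the cluster described above, those of Zfp180, Zfp112, Zfp94, Zfp93, Zfp109 and Zfp428, were at 4.49% or below, pooled over the 4 libraries. Their median was 27.0% in KO livers and 30.1% in WT livers, and that of the 10 bodies 39.4% in KO livers and 39.1% in WT livers. The bodies of that cluster fell into low ones, such as Zfp61 at 12.3% and 11.8% in KO livers and 12.4% and 11.8% in WT livers, and high ones, such as Zfp111 at 96.7% and 95.3% in KO livers and 94.9% and 96.8% in WT livers. Its 7 measured 3′ parts were all above 20%, with a median of 92.9% in KO livers and 91.8% in WT livers.

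From Zfp84 to Zfp146 on chromosome 7, with 15 genes, the median of 13 ends was 1.27% in KO livers and 2.19% in WT livers, with 5 of the 13 at 20% or more, and that of 13 3′ parts 93.9% in KO livers and 94.2% in WT livers. From Zfp677 to Zfp946 on chromosome 17, with 18 genes, the median of 14 ends was 0.549% in KO livers and 0.943% in WT livers, and KO was lower in 11 of the 14, some of which share CpGs. None of those 11 was called, and the median difference of the 14 was -0.219 points. KO was lower in 62 of all 120 Zfp ends and in 7378 of the 15074 ends of all genes. No other cluster was as uneven at this end. From Zfp712 to Zfp273 on chromosome 13, with 19 genes, 12 could be measured in any part.

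**Figure D4:**
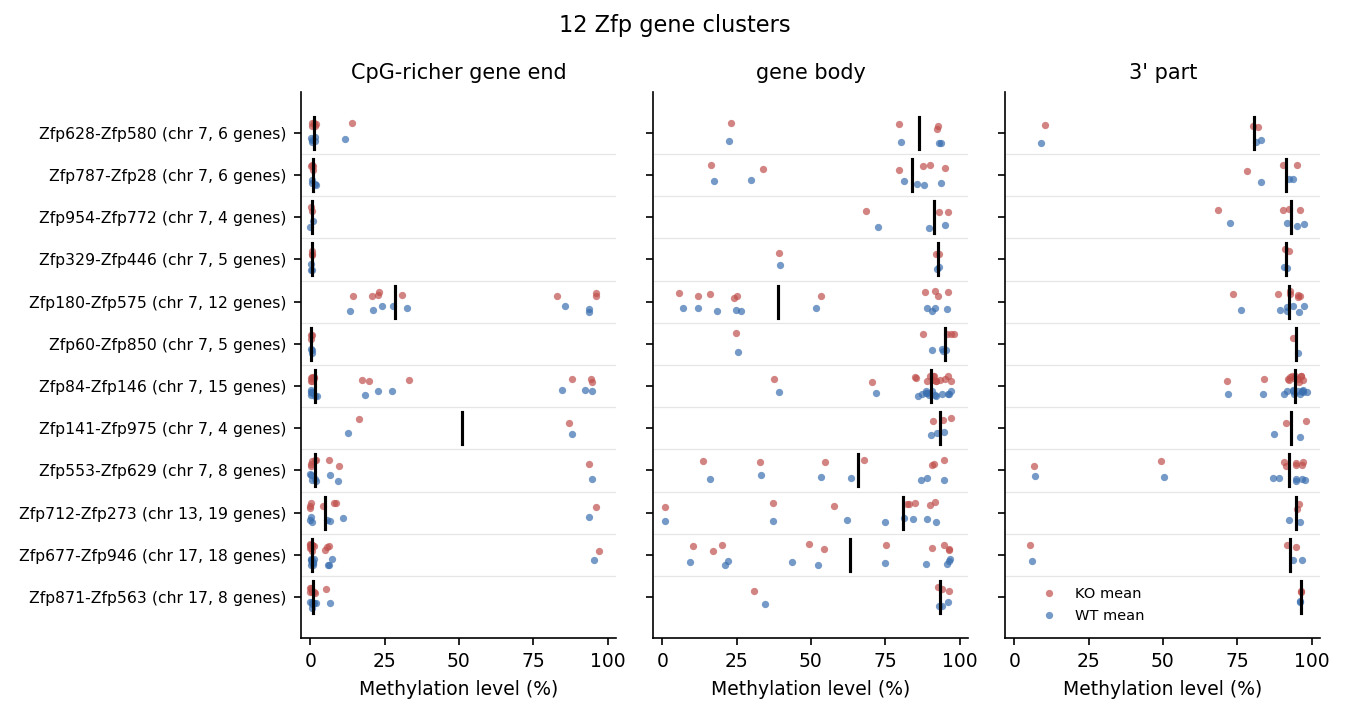
Methylation level (horizontal axis, %) of the Zfp genes in 12 clusters (rows, named by their first and last gene) at the CpG-richer end, in the body and in the 3′ part; red points above are means of the KO libraries, blue points below those of the WT libraries and black bars the medians of all 4 libraries. The ends lie near 0 in most clusters, while the cluster from Zfp180 to Zfp575 has 7 of 8 ends at 20% or more.

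The chromosome 13 cluster includes genes named as regulators of sex-limited protein or as candidates for it, KRAB genes known in mouse liver for holding down male-biased transcripts. RefSeq synonyms put 14 of the 163 in this group, and 10 had a part with a value. Zfp429, which is Rsl2, had a body at 87.0% and 96.7% in KO livers, against 92.2% and 92.0% in WT livers over 3 CpGs. The CpG-richer end of Zfp748 held no methylated read in any library, and that of Zfp85 was at 0% in both KO livers, against 0.704% and 0.272% in WT livers. Zfp459 had a body at 59.3% and 56.0% in KO livers, against 61.6% and 62.7% in WT livers (adjusted p 0.928). The measured CpG-richer ends of the group lay below 20% in every library, except that of Zfp708.

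At finer scale, 526 tiles of 1 kb in the genes were tested, and 0 were called, where 0.0874% of all tiles were; 27 had an unadjusted p under 0.05 (5.13%, against 6.31% of all tiles), with KO higher in 16 and lower in 11. The limma test on log2 ratios called 0 of all 163610 tiles of the genome, so it adds nothing on those in the genes. The tile closest to the threshold lay in Zfp710 (chr7:80056001-80057000). Its 3 CpGs were methylated at 59.3% and 57.1% in KO livers, against 45.5% and 37.3% in WT livers, a difference of 16.9 points (95% interval 7.41 to 26.3, adjusted p 0.224). With CpGs of 5 or more reads kept, this tile held 7 CpGs, differed by 17.7 points and passed the threshold (adjusted p 0.0428), the 1 call among 721 tiles in the genes, where 0.0789% of all tiles were called. In Zfp536 the tile at chr7:37473001-37474000 was at 72.6% and 66.4% in KO livers, against 48.7% and 56.1% in WT livers, a difference of 17.1 points (adjusted p 0.456).

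Tiles of intermediate level leaned towards KO in these genes as they did genome-wide. Of the 88 tiles between 20% and 80%, KO was higher in 55 (62.5%, against 55.9% of all such tiles), with a median difference of 1.66 points, against 0.847 over all. Their mean level was 60.0% and 60.2% in KO livers, against 59.0% and 58.6% in WT livers. Zfp536 alone gave 26 of these 88 tiles and Zfp710 gave 11, and tiles of the same gene are not independent. Of all 526 tiles Zfp536 gave 57, with KO higher in 37 and lower in 20. Zfp710 gave 25, with KO higher in 18 and lower in 7. Among single CpGs, the 635 between 20% and 80% had a mean of 58.6% ± 0.158 in KO livers and 57.2% ± 0.529 in WT livers (SD, n = 2 each), a difference of 1.40 points, against 1.30 over all such CpGs. The 3568 CpGs below 20% differed by -0.00045 points.

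Of 4209 single CpGs tested in the genes 0 were called, where 0.000712% of all CpGs were. An unadjusted p under 0.05 was seen in 136 (3.23%, against 3.85% of all). Limma on log2 ratios also called 0 of them, where 0.0152% of all CpGs were called. Single CpGs were named only if read 20 times or more in each library and without overlap between genotypes. Among these the largest difference was in the body of Zfp710 (chromosome 7, position 80052530). It was at 37.8% and 63.3% in KO livers, against 83.3% and 76.5% in WT livers, on 24 to 37 reads. In the body of Zfp536 a CpG (chromosome 7, position 37752783) went the other way, at 100% and 92.9% in KO livers, against 81.0% and 57.1% in WT livers. Another CpG of Zfp536 (position 37344285) was at 48.3% and 40.6% in KO livers, against 75.0% and 60.7% in WT livers. Each of these had an adjusted p of 0.743.

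**Figure D5:**
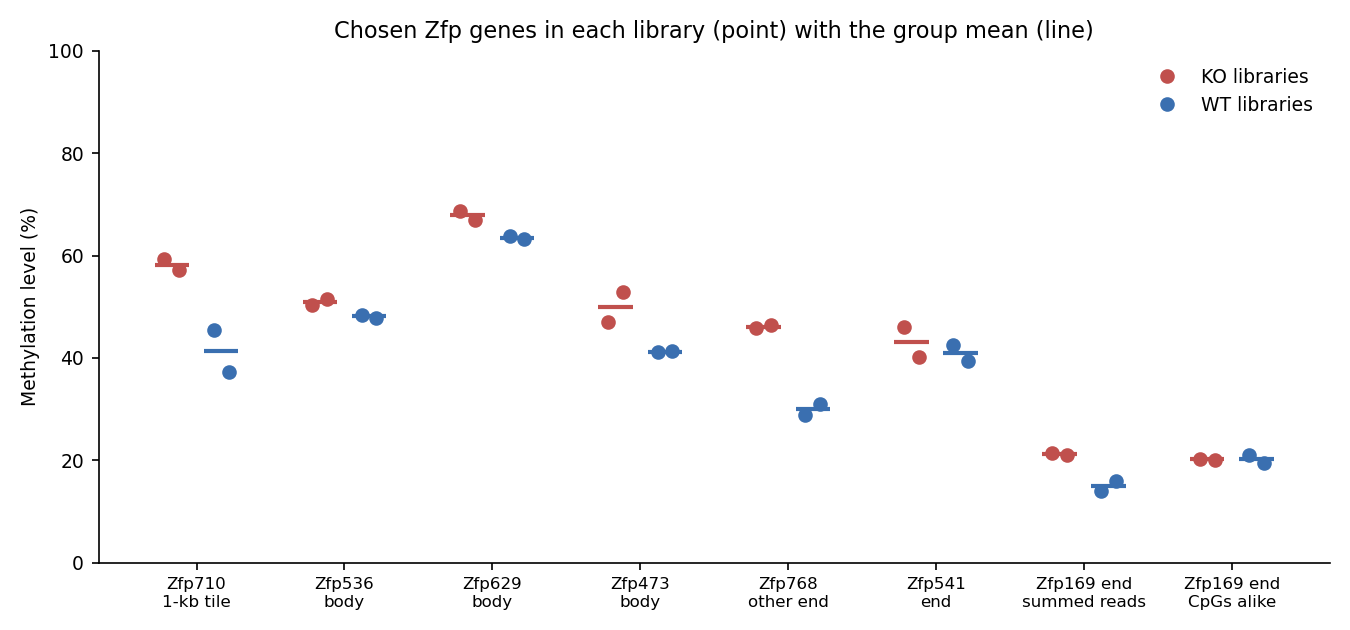
Methylation level (vertical axis, %) of chosen Zfp genes in each library, with KO (red) left of WT (blue) and lines at the group means. The Zfp169 end is drawn from summed reads, where the KO libraries lie above the WT libraries, and with every CpG weighing the same, where they overlap.

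The machinery that the KRAB proteins recruit was looked at through 28 genes, 27 of them in the annotation. Of 23 CpG-richer ends measured 22 lay below 20%, with a median of 0.564%, and 0 were called, with 1 at an unadjusted p under 0.05, where 6.57% of all ends stood. Trim28, the corepressor that KRAB domains bind, was at 0.389% and 0.280% in KO livers, against 0.283% and 0.193% in WT livers. In the body 0 of 25 were called, where 0.0198% of all bodies were, and none had an unadjusted p under 0.05, against 5.56% of all bodies. At the other end 0 of 4 were called, where 0.101% of all other ends were. There 1 of the 4 had an unadjusted p under 0.05, against 7.07% of all other ends. It was that of Ehmt2, a histone methyltransferase, at 40.3% and 40% in KO livers, against 47.4% and 48.0% in WT livers (adjusted p 0.502). As a check of the tissue, the CpG-richer ends of 8 hepatocyte genes had a median of 16.7% and those of 4 leukocyte genes one of 66.7%. The check was mixed: 5 of the 8 hepatocyte ends lay below 20%, the range was 4.10% to 69.7%, and Tat, Serpina1a and Cyp2e1 were not low, while the leukocyte ends ranged from 37.3% for Spi1 to 83.9%. Of the hepatocyte ends 0 were called, where 0.0333% of all ends were. An unadjusted p under 0.05 was seen in 2 of 8, against 6.57% of all ends. KO was higher in 7 of the 8 and in 7640 of all 15074 ends, and 8 chosen genes are too few to read a lean from. The end of Tat, a liver aminotransferase, was at 66.2% and 62.0% in KO livers, against 41.4% and 48.4% in WT livers (adjusted p 0.203), and that of Cyp2e1, a liver cytochrome P450, at 34.6% and 25.6% in KO livers, against 48.0% and 46.5% in WT livers (adjusted p 0.435). These differences exceed those of the Zfp ends, and their part in the result was not tested. The CpGs of Pnpla7 do not show the deletion: 1734 and 1749 reads fell on its CpGs in KO livers, against 1429 and 1732 in WT livers, and none of its 59 CpGs with 10 or more reads in both WT livers was without a read in both KO livers. No expression was measured, so levels of RNA or protein from these genes are not known here.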

How the data were processed

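The authors deposited, per library, 1 table of methylation levels and 1 of read coverage per cytosine; per the file headers they were made with GBSA, and the submitters' processing notes name BWA 0.7.12, MACS and mm10 with no role for each. Level times coverage gave whole reads for all values (tolerance 1e-06). Both strands of a CpG were summed here, CpGs with 10 or more reads in all 4 libraries kept, and reads summed over parts of at least 3 CpGs. KO was compared with WT in R 4.3.3 by a binomial model per feature; its dispersion was shrunk with limma 3.58.1 (squeezeVar) and held at 1 or above, tested two-sided by quasi-likelihood F, and p-values were adjusted by Benjamini-Hochberg over all features of a kind. The code was tested on simulated data. The Zfp genes, the gene lists and the tests were chosen with earlier results of these data known. Genes named singly are those with the smallest p among genes with separated libraries, ends of 20% or more, and a list by function; Zfp947, Zfp111, Zfp61, Zfp53, Zfp429, Zfp748, Zfp459, Zfp658, Zfp715, Zfp936, Zfp975 and Zfp977 were chosen after their values were seen. Deviations of same-numbered libraries were nearly uncorrelated over features (correlations of 0.0385 at the CpG-richer end, -0.0143 in the body). The labels do not say whether the numbers pair libraries. With so few libraries these correlations cannot decide it, since a shared effect may be too small to show. The promoter windows were added after seeing the data; identity between them is the share of 300 bases matched in a global alignment (Biopython).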

Additional observations from a re-analysis of the deposited data

How the results depend on the processing

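No Zfp gene was called at either end, in the body or in the 3′ part under any alternative run: coverage minimums of 5 and 20 reads, at least 1 or 5 CpGs, windows of 500 bases and 2 kb, a 3′ part of 2 or 10 kb, no minimum difference or one of 20 points, another prior, limma on log2 ratios or on CpG means, the deepest CpGs left out, and each library left out in turn. Tiles in the genes had 1 call at a coverage minimum of 5 reads (Zfp710, 17.7 points, adjusted p 0.0428) and 0 otherwise. With the replicate number as a block the count of called genes stayed 0 in every part, and 0 tiles and 0 CpGs were called in the genes; over all features the block gave 90 called tiles, against 143 without it, and 6 called 3′ parts, against 11. Counts over the whole genome depended on the setting. Both limma runs called 0 gene parts and 0 tiles over the whole genome, so their 0 for the Zfp genes was fixed. Over the whole genome 0 CpG-richer ends were called at 20 reads, with windows of 2 kb and at a difference of 20 points. Nor were any other ends with windows of 500 bases or the other prior, or any bodies at a difference of 20 points. In these runs too the 0 for the Zfp genes was fixed. With a library left out 1 library remains in a genotype, so those runs add no support. Called tiles ranged from 0 to 202, and from 0 to 2 with a library left out; called 3′ parts ranged from 0 to 30, and from 22 to 30 with a library left out. Called CpG-richer ends ranged from 0 to 6, against 5 in the main test, other ends from 0 to 7, against 5, and bodies from 0 to 4, against 3. Single CpGs numbered 9 in the main test, 7 at 20 reads, 0 at 5 reads, with the block and with any library left out, 102 with the other prior and 192 with limma on log2 ratios.

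The mean KO minus WT over the genes was small and moved with the setting. At the CpG-richer end (0.0333 points) it was -0.170 at 20 reads, -0.261 with 500 bases and 0.225 with 2 kb. At the other end (1.25 points) it was 0.546 at 5 reads, 0.0630 at 20 reads, 0.785 with at least 5 CpGs, 2.54 with 500 bases and 0.425 with 2 kb. In the body (0.583 points) it was -0.0158 with 2 kb. In the 3′ part (0.184 points) it was -0.00675 at 5 reads, 0.0200 with 500 bases, 0.0688 with 2 kb, 0.867 over 2 kb of 3′ part and -0.0102 over 10 kb. With a library left out it ranged from -0.0633 (without KO replicate 2) to 0.130 (without KO replicate 1) at the CpG-richer end, from 0.969 (without WT replicate 2) to 1.53 (without WT replicate 1) at the other end, from 0.232 (without KO replicate 2) to 0.935 (without KO replicate 1) in the body and from 0.0913 (without KO replicate 2) to 0.277 (without KO replicate 1) in the 3′ part. Of 33 named differences, 10 turned in some setting. With CpGs weighing the same these were Zfp598 (-0.0624) and Zfp169 (-0.0469); with 500 bases Zfp169 (-0.210), Zfp82 at the other end (1.57) and the Zfp473 body (-0.0305); with 2 kb Zfp574 (0.143) and, at the other end, Zfp768 (-3.64), Zfp771 (-0.0989), Zfp524 (0.882) and Zfp418 (0.385); at 5 reads Zfp871 (0.106). The cause was not tested.

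A limit is 2 libraries per genotype with a median of 21 to 25 reads per CpG: a CpG with 5 of 10 reads methylated has a 95% interval of 18.7% to 81.3%, and 12 genes, mostly on chromosome 13, have no measured part.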
